A study of Mus musculus with 4 samples.

Results

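The Notch and secretory fate genes described here are 10 protein-coding genes chosen by symbol from the 16015 genes listed for the series. They are the receptors *Notch1* and *Notch2*, the ligands *Dll1*, *Dll4* and *Jag1*, the Notch target *Hes1*, and the fate factors *Atoh1*, *Gfi1*, *Neurog3* and *Klf4*. Each symbol matched a listed gene, and all 10 passed the filter on low values. Bulk RNA sequencing covered the colonic epithelial cells of 2 control and 2 *Bmal1* cKO mice, as the labels name them. The control mice were *Bmal1* fl/fl animals, which the labels call WT, and the others carried Villin-CreERT2 with *Bmal1* fl/fl, so that a Cre driven in the intestinal epithelium could remove *Bmal1* once tamoxifen was given. All 4 were of the C57BL/6 strain, 2 to 4 months old. Tamoxifen was injected on 5 consecutive days to activate the Cre, and whether the controls received it is not stated. All drank 3% dextran sulfate sodium (DSS), a polysaccharide that injures the colonic epithelium, for 5 days, returned to water for 2 days and gave their cells on day 7.

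Notch receptors are activated by ligands on a neighbouring cell. Proteases then release the intracellular part of the receptor, which enters the nucleus, joins RBPJ and switches on repressors such as HES1. In the crypt, HES1 represses *Atoh1*, so that cells receiving a Notch signal take the absorptive fate, while cells that escape it express *Atoh1* together with the ligands *Dll1* and *Dll4* and become secretory. Downstream of ATOH1, GFI1 and KLF4 act in goblet cells, and NEUROG3 starts the enteroendocrine programme.

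The values are normalized counts, in which a library's size factor has been divided out of the reads on each gene. Between 10312791 and 14156639 reads per library fell on listed genes. Differences are log2 fold changes, cKO minus control, of the normalized count plus 1, given with their standard error (SE) and tested across 13983 genes by limma with Benjamini-Hochberg adjustment. The targeted gene *Bmal1*, listed as *Arntl* (ENSMUSG00000055116), stood at 358 and 342 normalized counts in the controls and at 341 and 289 in the libraries labelled *Bmal1* cKO. It differed by a log2 fold change of -0.16 (SE 0.14, adjusted p = 0.389, limma), by -0.40 after the correction for GC content described below (adjusted p = 0.0771, limma), by -0.38 with libraries scaled to their totals and by 0.27 with libraries scaled to epithelial markers. The count covers the whole gene, so reads from exons that were not deleted are included, and a loss of the gene was not detected at this level. The groups are therefore named by their labels, as control and as labelled cKO. At the protein level, the paper reports by immunoblot and immunohistochemistry that BMAL1 was lost from the intestinal epithelium of the cKO mice.

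In the libraries labelled cKO, 6 of the 10 genes were lower, 1 was higher and 3 did not pass the test (adjusted p under 0.05 from limma). *Notch2* fell most, from 470 and 455 to 173 and 134 normalized counts, and *Jag1* rose from 366 and 344 to 581 and 566. *Notch1*, *Dll4*, *Hes1*, *Gfi1* and *Klf4* were also lower, while *Dll1*, *Atoh1* and *Neurog3* were not called. Over all genes tested, 27.7% were lower and 29.0% higher by the same rule. The median log2 fold change of the 10 genes was -0.75, against -0.04 for all genes tested. The groups did not overlap for 8 of the 10 genes, and this held for 82.1% of all genes tested. When 1 mouse was left out, 1 to 3 genes were called lower, with 1 without control mouse 2, 2 without cKO mouse 1 and 3 without either of the other mice. In these fits between 15.8% and 20.4% of all genes were lower, the most without control mouse 2.

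**Figure D1:**
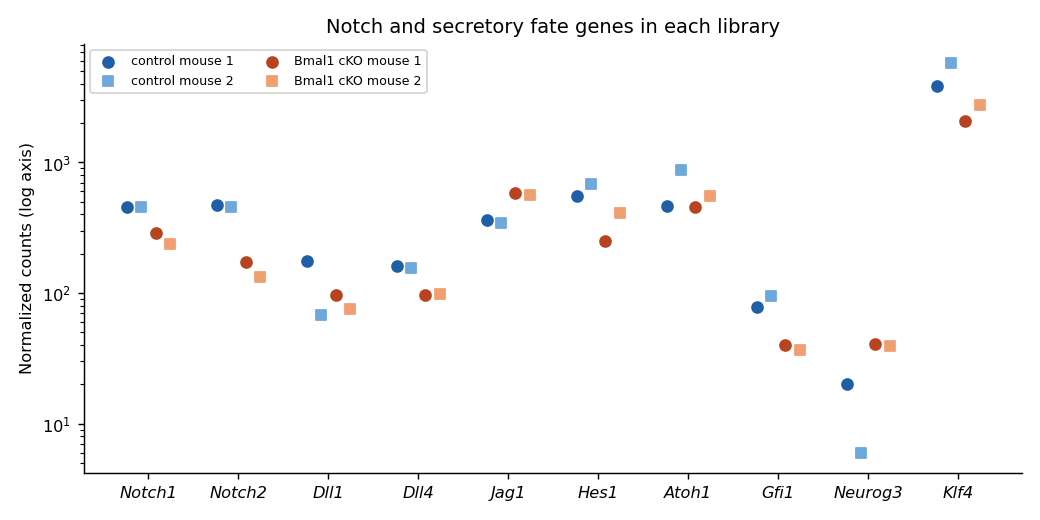
Normalized counts of the 10 genes in each of the 4 libraries, on a log axis, with 1 point per mouse. Both libraries labelled *Bmal1* cKO lie below both controls for *Notch1*, *Notch2*, *Dll4*, *Hes1*, *Gfi1* and *Klf4* and above them for *Jag1* and *Neurog3*.

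Per kilobase of exon, the level differed widely between the genes. *Klf4* was highest, at 1262 and 1879 normalized counts per kilobase in the control mice. *Hes1* (272 and 337) and *Atoh1* (220 and 413) came next and overlapped with each other. *Jag1* followed at 62.8 and 59.0, above *Notch2* at 43.6 and 42.2 and *Dll4* at 42.1 and 40.7, a pair that differed by little. *Notch1* lay at 32.3 and 31.9 and *Gfi1* at 24.4 and 29.8. *Dll1* ranged too widely between the control mice to be placed, and *Neurog3* was lowest, at 12.1 and 3.54. In the libraries labelled cKO, *Klf4* stayed highest per kilobase (676 and 899), whereas *Notch2* (16.03 and 12.4) lay below *Notch1* (20.2 and 16.8).

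The promoters of these genes were read for 3 short motifs that the pathway and the clock are known for. The E-box CACGTG is bound by BMAL1 with CLOCK, the N-box CACNAG by HES proteins and TGGGAA by RBPJ. RefSeq promoters of GRCm38.p6 matched 9 of the genes, all but *Hes1*, with 11 windows, and the 250 bases upstream of the start were searched on both strands. The E-box was present in 1 of the 11 windows, that of *Klf4*, against 6.02% of 32851 promoter windows. The N-box was present in 3, those of *Dll4*, *Notch1* and *Notch2*, against 36.7%, and TGGGAA in 0, against 21.6%. The 60 bases around each match are printed 5′ to 3′ on the strand of the gene, with the match in capitals, to show where the letters lie in the promoters of these genes. The letters of the E-box and the N-box cannot coincide, and a match is a sequence only, with no measurement of binding.
*Klf4* (E-box, chr4:55532625-55532684, minus strand): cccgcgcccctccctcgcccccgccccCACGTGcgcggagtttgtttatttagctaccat
*Notch1* (N-box, chr2:26503898-26503957, minus strand): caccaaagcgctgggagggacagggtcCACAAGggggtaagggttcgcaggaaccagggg
*Dll4* (N-box, chr2:119325682-119325741, plus strand): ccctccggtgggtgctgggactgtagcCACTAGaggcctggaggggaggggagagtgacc
*Notch2* (N-box on the opposite strand, chr3:98013288-98013347, plus strand): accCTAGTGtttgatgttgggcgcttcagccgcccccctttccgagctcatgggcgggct
The match began 182 bases upstream of the start in *Klf4*, 108 in *Notch1*, 75 in *Dll4* and 247 in *Notch2*. These are RefSeq starts. The *Notch1* window lies inside the GENCODE span of the gene given below (26457903 to 26516663), which begins further upstream.

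Among the receptors, *Notch2* (ENSMUSG00000027878, chromosome 3 of GRCm38, 98013527 to 98150361) differed most. Its 2 controls averaged 462 ± 10.5 (SD, n = 2) normalized counts, and the libraries labelled cKO averaged 153 ± 27.6 (SD, n = 2). This was a log2 fold change of -1.60 (SE 0.18, adjusted p = 0.00136, limma), that is, 3.03-fold lower. *Notch2* kept its call in all 17 alternative ways of processing, with log2 fold changes between -1.82 and -0.83. Its annotated exons share bases with *Gm42820* on the same strand, so reads there cannot be assigned to *Notch2* with certainty.

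*Notch1* (ENSMUSG00000026923, chromosome 2, 26457903 to 26516663), the other receptor with a known role in crypt cells, was at 460 and 454 normalized counts in the controls and 288 and 239 in the libraries labelled cKO. Both control values lay above both cKO values. *Notch1* thus differed by -0.80 on the log2 scale (SE 0.15, adjusted p = 0.00693, limma, 95% interval -1.16 to -0.43). The call was lost without control mouse 1 (-0.79) and without control mouse 2 (-0.81), where 1 control library remained. It was also lost after the correction for GC content described below. Within a library, the log2 ratio of *Notch1* to *Notch2* was -0.03 and -0.00269 in the controls and 0.74 and 0.84 in the libraries labelled cKO. A ratio within a library does not depend on how the library is scaled, but it can carry the GC trend described below. This one placed both receptors at nearly the same count in the controls and *Notch1* above *Notch2* in the other group. After the GC correction *Notch1* was at 0.14 and *Notch2* at -1.14.

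Of the ligands, *Jag1* (ENSMUSG00000027276, chromosome 2, 137081456 to 137116644), which encodes a Serrate-type ligand, was the only one of the 10 genes called higher. It averaged 355 ± 15.5 (SD, n = 2) normalized counts in the controls and 574 ± 10.5 (SD, n = 2) in the libraries labelled cKO. This gave a log2 fold change of 0.69 (SE 0.11, adjusted p = 0.00471, limma), 1.62-fold higher. *Jag1* was called in all 17 alternatives, with log2 fold changes from 0.47 to 1.12, and its exons overlap no other annotated gene.

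*Dll4* (ENSMUSG00000027314, chromosome 2, 119325784 to 119335962), a Delta-type ligand of secretory precursors that endothelial cells also express, had 162 and 157 normalized counts in the controls and 96.7 and 98.7 in the others. Both groups were tight and did not overlap. On the log2 scale the difference was -0.70 (SE 0.19, adjusted p = 0.0275, limma). Leaving out any of the 4 mice ended the call, with log2 fold changes between -0.73 and -0.68, and so did DESeq2 on the recovered reads (-0.71).

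*Dll1* (ENSMUSG00000014773, chromosome 17, 15367354 to 15376872), the other Delta-type ligand of secretory precursors, had 177 and 68.6 normalized counts in the controls and 96.7 and 75.7 in the libraries labelled cKO. Control mouse 1 was highest and control mouse 2 lowest of the 4 libraries, so that the cKO values lay between the controls. A log2 fold change of -0.36 (SE 0.48, adjusted p = 0.539, limma) had a 95% interval from -1.57 to 0.84, which leaves a difference of either direction possible. Without control mouse 1 the log2 fold change was 0.31. The log2 ratio of *Dll1* to *Dll4* was 0.13 and -1.19 in the controls and 0 and -0.38 in the libraries labelled cKO, so these groups overlapped too.

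*Hes1* (ENSMUSG00000022528, chromosome 16, 30064384 to 30067796), the repressor switched on by Notch, had 553 and 686 normalized counts in the controls and 250 and 410 in the libraries labelled cKO. The higher cKO value was still below the lower control value, although the mice within each group differed by 1.24 and 1.64 times. *Hes1* was thereby lower by a log2 fold change of -0.94 (SE 0.26, adjusted p = 0.0271, limma), 1.92-fold lower. The call was lost without control mouse 1 (-1.10), control mouse 2 (-0.79) or cKO mouse 1 (-0.59).

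*Atoh1* (ENSMUSG00000073043, chromosome 6, 64729125 to 64731245), the factor that commits crypt cells to the secretory fate, had 467 and 875 normalized counts in the controls and 456 and 551 in the others. Control mouse 2 stood above the rest, and the groups overlapped. For *Atoh1* the difference on the log2 scale was -0.35 (SE 0.30, adjusted p = 0.359, limma, 95% interval -1.11 to 0.41), and the interval includes differences in either direction. Without control mouse 1 it was -0.80 and passed the test (adjusted p = 0.0431 from limma), and without control mouse 2 it was 0.10. The log2 ratio of *Hes1* to its target *Atoh1* was 0.24 and -0.35 in the controls and -0.87 and -0.43 in the libraries labelled cKO. The groups did not overlap, as for 82.1% of all single genes tested.

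*Gfi1* (ENSMUSG00000029275, chromosome 5, 107716657 to 107726036), a repressor that keeps secretory precursors from the enteroendocrine fate, had 77.7 and 94.9 normalized counts in the controls and 40.1 and 36.5 in the libraries labelled cKO. Its groups were well apart. *Gfi1* was lower by a log2 fold change of -1.15 (SE 0.30, adjusted p = 0.0225, limma), 2.21-fold lower. Leaving out any of the 4 mice ended the call, with log2 fold changes from -1.29 to -1.004. The log2 ratio of *Gfi1* to *Atoh1* was -2.59 and -3.21 in the controls and -3.51 and -3.92 in the others. These did not overlap, as for 82.1% of all single genes tested. *Gfi1* is richer in GC (57.4%) than *Atoh1* (53.1%). After the GC correction described below, they had log2 fold changes of -0.21 and 0.04.

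*Neurog3* (ENSMUSG00000044312, chromosome 10, 62133090 to 62134763), which starts enteroendocrine differentiation, moved the other way in value. It had 20.3 and 5.93 normalized counts in the controls and 41.1 and 39.2 in the libraries labelled cKO, from 24, 7, 40 and 29 reads. Both cKO values were above both control values, and the control mice differed by 3.42 times. A log2 fold change of 1.76 (SE 0.67, 95% interval 0.08 to 3.44) did not pass the test over all genes (adjusted p = 0.0697 from limma). Without control mouse 1 it was 2.57 and passed, and without control mouse 2 it was 0.95. Its exons overlap *Fam241b* on the opposite strand, and with few reads and no stated strand setting a part of these reads may belong to that gene.

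*Klf4* (ENSMUSG00000003032, chromosome 4, 55527143 to 55532466), a factor of goblet cells and of surface colonocytes that have stopped dividing, was the most abundant of the 10 per kilobase. It had 3849 and 5728 normalized counts in the controls and 2061 and 2740 in the libraries labelled cKO. Both cKO libraries were below both controls. As a log2 fold change this was -0.98 (SE 0.23, adjusted p = 0.0161, limma), 1.98-fold lower. The call was lost without control mouse 2 (-0.70), cKO mouse 1 (-0.78) or cKO mouse 2 (-1.19).

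Of the 10 genes, 6 have exons that overlap another annotated gene. Besides *Notch2* and *Neurog3*, these are *Notch1*, *Dll1*, *Dll4* and *Gfi1*, each with a partner on the opposite strand. *Jag1*, *Hes1*, *Atoh1* and *Klf4* have none.

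The difference between the groups followed the GC content of the genes, and these genes are mostly GC-rich. Spearman's rho across 13975 genes was -0.61 between the log2 fold change and GC content and 0.19 with exon length, where genes are not independent replicates. The same rho was -0.01 between the control mice and 0.12 between the mice labelled cKO. *Notch1*, *Dll4*, *Gfi1* and *Neurog3* lie in the ninth of 10 equal classes by GC content (55.2% to 57.6%), where the median log2 fold change was -0.82. *Notch2*, *Dll1* and *Klf4* lie in the eighth, with a median of -0.55, *Atoh1* in the seventh (-0.32), *Hes1* in the sixth (-0.06) and *Jag1* in the fifth (0.17). Thus *Notch1* at -0.80 and *Dll4* at -0.70 lay at about the median of genes of like composition. *Atoh1* at -0.35 did so too. *Notch2*, *Hes1*, *Klf4* and *Gfi1* lay below theirs, and *Jag1*, *Neurog3* and *Dll1* above.

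**Figure D2:**
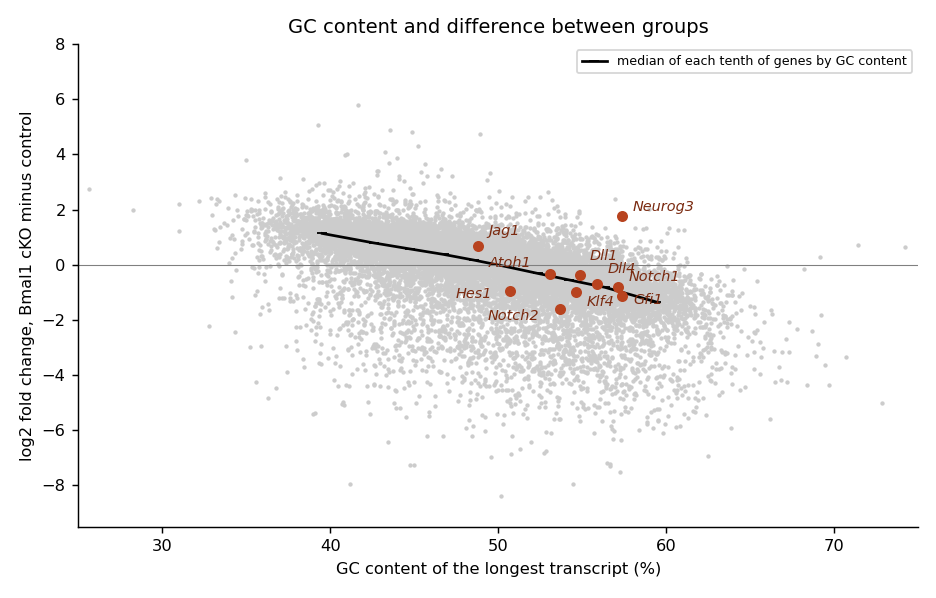
Log2 fold change (*Bmal1* cKO minus control) against the GC content of the longest transcript for the tested genes, in grey, with the 10 genes named and a line through the medians of 10 equal classes by GC content. The line falls from 1.13 in the lowest class to -1.35 in the highest, and *Notch1* and *Dll4* lie on it while *Notch2* lies below and *Neurog3* above.

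Each library was therefore also corrected by loess for GC content and exon length. After it, 2 of the 10 genes were lower, *Notch2* (-1.14, adjusted p = 0.00781) and *Hes1* (-0.84, adjusted p = 0.0467), and 2 were higher, *Jag1* (0.52, adjusted p = 0.0208) and *Neurog3* (2.73, adjusted p = 0.0297), all from limma. The share of all genes called after the correction was 17.6% lower and 18.4% higher. *Notch1* went to 0.14, *Dll4* to 0.03, *Atoh1* to 0.04 and *Dll1* to 0.24, and these no longer had the sign they had before. *Gfi1* (-0.21, adjusted p = 0.591) and *Klf4* (-0.40, adjusted p = 0.227) kept theirs without passing. The median of the 10 genes was 0.04 after the correction, against -0.01 for all genes, so the direction of the group as a whole depended on this step. The correction also removes any real difference that runs with GC content, and the part of each was not tested.

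The scaling between libraries mattered as well. With libraries scaled to 15 epithelial markers, the median of all genes moved by 0.42 to 0.39, and the 10 genes had a median of -0.32, which was 0.71 below that of all genes. By this scaling *Notch2* (-1.17, adjusted p = 7.34e-04) and *Klf4* (-0.55, adjusted p = 0.0244) were lower and *Jag1* (1.12, adjusted p = 2.90e-04) and *Neurog3* (2.15, adjusted p = 0.0111) higher by limma, where 17.4% of all genes were lower and 38.5% higher. *Hes1* had -0.52 and missed the threshold (adjusted p = 0.0862 from limma). The SE by this scaling was 0.28 for *Notch2*, 0.25 for *Jag1* and 0.72 for *Neurog3*. With the deposited scaling it was smaller (0.18, 0.11 and 0.67), yet the adjusted p of each gene was larger there. The calls of these fits therefore do not rest on the same estimate of error. Scaling to the library total moved the median of all genes by -0.22 and left 6 genes lower and 1 higher, where 34.9% of all genes were lower and 22.1% higher. *Notch2* and *Jag1* were thus the only ones of the 10 genes with the same call under the deposited scaling, the correction and the epithelial scaling.

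**Figure D3:**
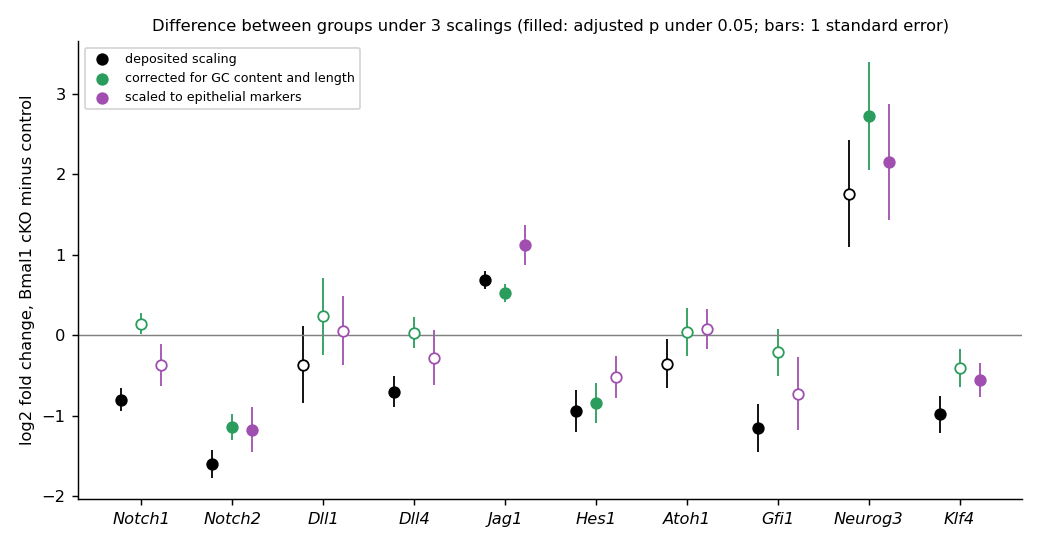
Log2 fold change of each gene (*Bmal1* cKO minus control) with the deposited scaling, with the GC and length correction, and with scaling to epithelial markers. Bars are 1 standard error and filled points passed the test (adjusted p under 0.05 from limma); *Notch2* and *Jag1* are filled in all 3, and *Notch1* and *Dll4* move from below to about or above 0 after the correction.

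Markers of other cell types moved with the labels in the same libraries, and several of these cells use Notch receptors and ligands themselves. The counts stand against 27.7% of all genes lower and 29.0% higher, or 17.6% and 18.4% after the GC correction. Of 15 epithelial markers, which include *Epcam*, *Cdh1* and *Krt8*, 5 were lower and 3 higher (median log2 fold change -0.34), from *Cldn4* (-2.01) and *Cldn3* (-1.55) to *Esrp1* (1.15) and *Tspan8* (1.23). After the GC correction 0 were lower and 7 higher (median 0.35), and with library total scaling 8 were lower and 3 higher, so their direction turned with the processing. Their summed normalized counts were 164846 and 188766 in the controls and 170394 and 179022 in the libraries labelled cKO. Of 19 leukocyte markers tested 16 were lower, with sums of 21360 and 34748 against 5831 and 5366. Of 15 endothelial markers tested 14 were lower, with sums of 3447 and 845 against 92.6 and 126, and *Emcn* and *Sox17* had no read in either cKO mouse. Of 12 smooth muscle and pericyte markers 10 were lower (3808 and 2887 against 601 and 674), and of 11 fibroblast markers 9 (17226 and 5607 against 2540 and 2455). After the GC correction 14 leukocyte, 10 endothelial, 7 smooth muscle and pericyte and 7 fibroblast markers were lower, and 1 fibroblast marker was higher. The libraries were of whole cell preparations, and fewer cells of a type and less RNA per cell cannot be told apart in them.

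**Figure D4:**
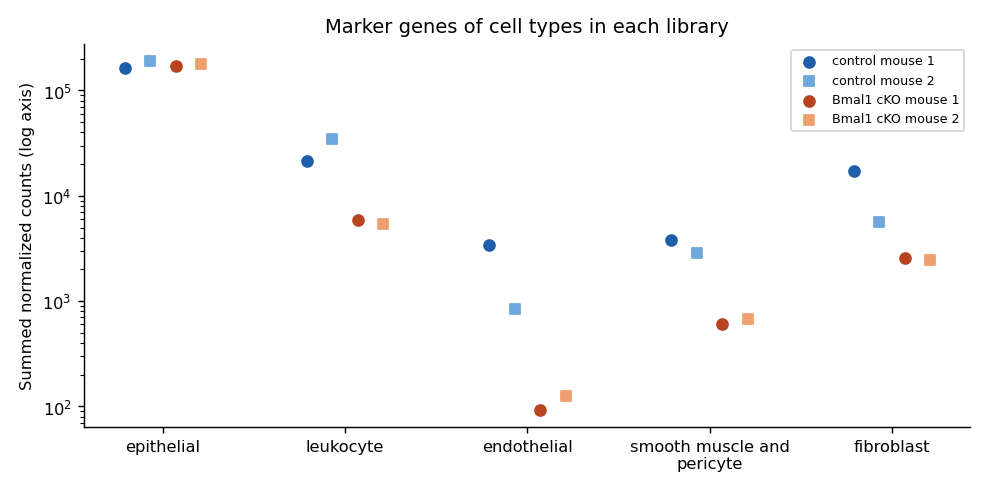
Summed normalized counts of marker genes of 5 cell types in each library, on a log axis, with 1 point per mouse. The epithelial sums lie close together, while the leukocyte, endothelial, smooth muscle and fibroblast sums of both libraries labelled *Bmal1* cKO lie below both controls.

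The control mice themselves differed in these markers, and the values of the Notch genes in the same pair are set beside them. The endothelial sum was 3447 in control mouse 1 and 845 in control mouse 2, and the fibroblast sum 17226 and 5607. *Notch1* (460 and 454), *Notch2* (470 and 455), *Dll4* (162 and 157) and *Jag1* (366 and 344) were nearly level in the same pair of mice. Of the other receptors, *Notch4* (401 and 375), best known from endothelium, was nearly level too, and *Notch3* (54.9 and 28.8) was not. *Dll1* (177 and 68.6) and *Neurog3* (20.3 and 5.93) were higher in control mouse 1. *Hes1*, *Atoh1*, *Gfi1* and *Klf4* were higher in control mouse 2, as were the leukocyte sum (21360 and 34748) and the sum of the goblet cell products (246872 and 497715). The part that other cell types had in the lower values of *Notch1*, *Notch2*, *Dll4*, *Hes1*, *Gfi1* and *Klf4* between the groups was not tested.

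The rest of the Notch pathway was counted by lists of genes, to be read against the 27.7% of all genes that were lower and the 29.0% that were higher, or 17.6% and 18.4% after the GC correction. Of the other receptors and ligands, 5 of 7 were listed and tested, and 4 were lower and 0 higher, with a median log2 fold change of -2.43. They were *Jag2* (-2.90), *Dlk1* (-2.62), *Notch3* (-2.43) and *Notch4* (-1.85), where *Notch3* marks pericytes and *Notch4* is best known from endothelium. *Jag2*, the paralogue of *Jag1*, had 186 and 213 normalized counts in the controls and 30.9 and 21.6 in the others, opposite in direction to *Jag1*. After the GC correction *Jag2* (-1.29, adjusted p = 0.0206 from limma) and *Dlk1* remained lower, and *Notch3* (-1.17, adjusted p = 0.213) and *Notch4* (-0.33, adjusted p = 0.434) no longer passed by limma. *Notch3*, *Notch4* and the genes *Rbpj*, *Muc2* and *Chga* named below were picked after their values were seen.

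Of 16 genes that cut and glycosylate the receptors, 4 were lower and 5 higher, with a median of 0.17, which is near the shares of all genes (27.7% and 29.0%). *Adam10*, the protease that makes the activating cut on the outside of the membrane, was higher (log2 fold change 1.52), as was *Aph1b*, a gamma-secretase subunit (1.38). *Furin*, which cleaves the receptor on its way to the surface, was lower (-1.76), as was *Rfng*, a Fringe glycosyltransferase (-1.17). After the GC correction 1 was lower and 5 were higher. *Adam10* (0.69, adjusted p = 0.00964) and *Furin* (-0.999, adjusted p = 0.00532) still passed by limma. *Rfng* went to 0.01 and *Aph1b* to 0.63 (adjusted p = 0.122 from limma).

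Of 18 genes of ligand endocytosis and Notch turnover, 6 were lower and 6 higher, with a median of -0.08, again near the shares of all genes (27.7% and 29.0%). *Mib1*, the ubiquitin ligase that ligands need in the sending cell, had a log2 fold change of 1.38, and 0.64 after the correction (adjusted p = 0.00641 from limma). *Dtx3l*, a Deltex family member, rose by 1.55. *Numbl* (-3.61) and *Neurl1a* (-3.15) were the lowest of those called. After the correction *Numbl* was still at -3.07 and *Neurl1a* at -1.32, and neither passed (adjusted p = 0.0548 and 0.152 from limma). After it 2 were lower and 5 higher.

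Of 22 genes of the nuclear complex and its corepressors, 6 were lower and 7 higher, with a median of 0.10, as for all genes (27.7% and 29.0%). *Rbpj*, the DNA-binding partner of every Notch receptor, had 534 and 601 normalized counts in the controls and 884 and 888 in the others, a log2 fold change of 0.64 (adjusted p = 0.00516 from limma) that went to -0.06 after the GC correction. The corepressor *Tle2* (-2.07) was lower, and *Tle4* and the acetyltransferase *Kat2b* (1.04 each) higher. After the correction 4 of the list were lower and 6 higher, against 17.6% and 18.4% of all genes, and *Tle2* no longer passed (adjusted p = 0.243 from limma).

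Of the other HES and HEY targets and feedback genes, 15 of 19 were listed and 13 tested, with 8 lower and 1 higher, against 27.7% and 29.0% of all genes, and a median of -0.75. *Nrarp*, a feedback inhibitor induced by Notch, had 43.9 and 44.9 normalized counts in the controls and 13.4 and 17.6 in the others, a log2 fold change of -1.47 (adjusted p = 0.0311 from limma). After the GC correction it was -0.90 and did not pass (adjusted p = 0.149 from limma). *Myc* fell by 2.08 on the log2 scale and *Cdkn1b*, a cell cycle inhibitor that HES1 represses, rose by 1.34. The correction left *Myc* at -1.66 and *Cdkn1b* at 0.60 (adjusted p = 0.00700 and 0.0155 from limma). After the correction 3 were lower and 1 higher, near the 17.6% of all genes that were lower, and with epithelial scaling 3 were lower and 2 higher. *Heyl* had no read in either cKO mouse and few in the controls.

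Downstream of *Atoh1*, 27 of 28 other secretory lineage factors were listed and 22 tested, with 7 lower, near the 27.7% of all genes, and 2 higher, against 29.0%, and a median of -0.48. *Spdef*, a goblet cell factor, had 781 and 948 normalized counts in the controls and 143 and 159 in the others, a log2 fold change of -2.50 that was -1.27 after the GC correction (adjusted p = 0.00611 from limma). *Fev*, a factor of serotonin-producing enteroendocrine cells, had 39.7 and 51.7 normalized counts in the controls and 2 and 0 reads in the others (adjusted p = 0.00692 from limma). *Rfx3* (1.30) and *Tcf12* (0.50), a partner of lineage-specific bHLH factors such as ATOH1, were higher. After the correction 4 were lower and 2 higher, against 17.6% and 18.4% of all genes, and *Tcf12* went to -0.13 and *Rfx3* to 0.27 (adjusted p = 0.204 from limma).

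The products of the secretory lineages were mostly lower with the deposited scaling, where 27.7% of all genes were lower and 29.0% higher. Of 14 goblet cell products 9 were lower and 0 higher (median -1.06), led by *Clca1* (-3.03) and *Tpsg1* (-2.88), and the main mucin *Muc2* fell by 1.41 (adjusted p = 0.0172 from limma). After the GC correction 4 were lower and 1 higher, against 17.6% and 18.4% of all genes, so most goblet cell products were then not called. *Muc2* (adjusted p = 0.0508) and *Tpsg1* (log2 fold change -1.81, adjusted p = 0.0556) no longer passed by limma. Of 17 enteroendocrine products tested 16 were lower and 0 higher (median -2.88), and the same numbers held after the GC correction (median -2.59). *Pcsk1n* (-5.41) and the hormone *Sst* (-4.85) were lowest, and the granule protein *Chga* (-3.62, adjusted p = 5.33e-04 from limma) was lower too. The sum over the enteroendocrine products was 12848 and 18722 normalized counts in the controls and 3029 and 2771 in the libraries labelled cKO, in which the starting factor *Neurog3* had its higher values. *Atoh1* had 467 and 875 normalized counts in the controls and 456 and 551 in the same libraries.

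Of 20 absorptive lineage factors, on the other side of the fate choice, 7 were lower and 8 higher, against 27.7% and 29.0% of all genes, with a median of 0.22. *Hnf4g*, a nuclear receptor of enterocytes, had a log2 fold change of 2.37, which was 1.52 after the GC correction (adjusted p = 0.00303 from limma), and *Nr5a2* rose by 1.29, or 0.54 without passing after the correction (adjusted p = 0.0685 from limma). *Maf* (-2.53) was lower. After the correction 2 were lower and 5 higher. Counts in several lists also moved with the scaling. With epithelial scaling 9 of the processing genes, 11 of the nuclear complex and 10 of the absorptive factors were higher, where 38.5% of all genes were, and with library total scaling 3, 3 and 5, where 22.1% of all genes were. Of the enteroendocrine products, 15 were lower with epithelial scaling (17.4% of all genes) and 16 with library total scaling (34.9%). The goblet cell products had 7 lower and 2 higher with epithelial scaling and 9 and 0 with library total scaling.

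**Figure D5:**
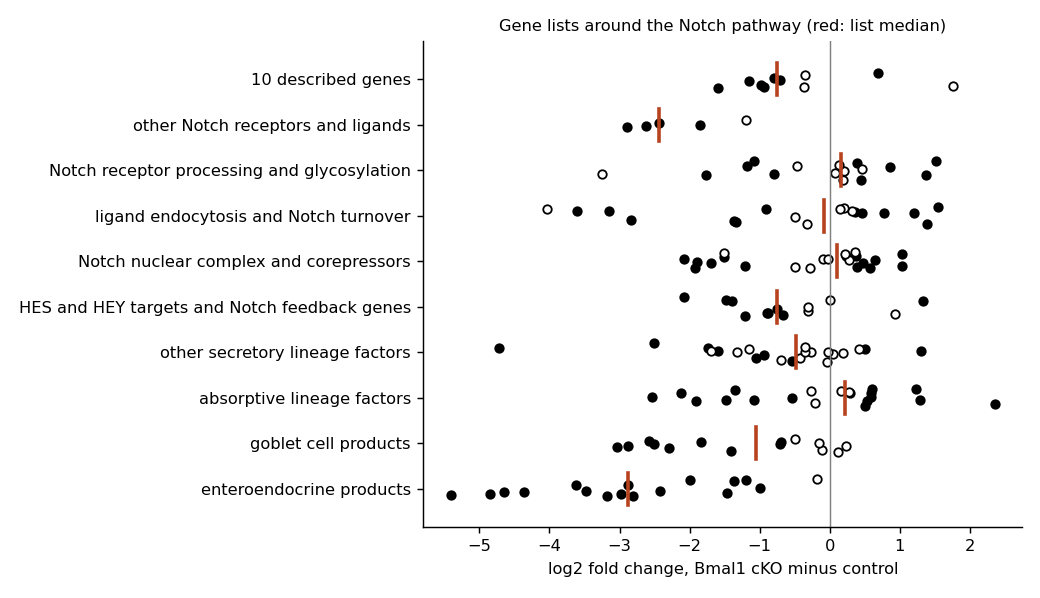
Log2 fold change (*Bmal1* cKO minus control) of each tested gene in the 10 genes described and in the lists around them, 1 point per gene, filled where the adjusted p from limma was under 0.05, with the list median in red and a random vertical offset. The enteroendocrine products lie furthest to the left, with a median of -2.88, while the processing, turnover, nuclear complex and absorptive lists spread to both sides of 0.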

How the data were processed

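RNA was sequenced from colonic epithelial cells of 2 control and 2 *Bmal1* cKO mice. The methods name STAR, the GRCm38 genome and DESeq2. The counter and annotation release are not given in the sources used here, nor is a strand setting, and the labels and the methods name different library kits. The authors deposited a signal per library, in which DESeq2 size factors had been divided out of the gene counts, and 0 columns of per-sample values were left unmatched to a sample. The authors' mean, fold change, standard error, statistic and p-value columns were not used. Whole reads were recovered for 100% of the values of each library (within 0.01 of a whole read), and the smallest mean listed was 3.39.

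The test used log2(value + 1), a scale that makes the change of low genes look smaller, and took in the 13983 genes whose mean reached 10. It was run with limma 3.58.1 (trend, two-sided, Benjamini-Hochberg, threshold 0.05). It was chosen as the main test because the deposited values were normalized. DESeq2, the test named in the methods, was run on the recovered reads as an alternative. Alternatives were pseudocounts of 0.5 and 5, no filter and a mean of at least 50, library total, TMM and epithelial marker scaling, edgeR 4.0.16 and DESeq2 1.42.0 on the recovered reads, a replicate block, leaving out each mouse, and a robust loess (span 0.3) against GC content and length, taken off each library. The steps were tested on simulated data. GENCODE M21 matched 16003 of the 16015 genes and gave positions, exon lengths and GC content.

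The 10 genes, the lists and the alternatives were chosen with earlier results of these data known. Named are all 10 genes, *Arntl*, from each other list at most 2 called genes with the most negative and 2 with the most positive log2 fold change, and the first genes of marker lists. Some genes that this rule names are not reported here. Counting noise was exceeded within both groups (chi-square per gene 45.3 for controls and 12.2 for cKO). The methods state separate mice from the same litter. Exact permutation over 4 libraries cannot reach the threshold.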

Additional observations from a re-analysis of the deposited data

How the results depend on the processing

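*Notch2* and *Jag1* kept their direction and their call in all 17 alternatives. Of the 10 genes, 6 were lower and 1 higher. With epithelial marker scaling 2 were lower and 2 higher, after the GC content and length correction 2 and 2, after the same correction by least squares, which was chosen after seeing the data, 1 and 2, and with the replicate block and the correction together 3 and 2. Leaving out 1 mouse gave 1 to 3 lower and 1 to 2 higher, from fits with fewer samples in which the lone library was assumed to vary like the others. The lowest count, 1, came without control mouse 2.

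Some log2 fold changes changed sign, and those that did so on leaving out a mouse are given for both control mice. *Notch1* went to 0.14 after the correction, with or without the block, and 0.50 by least squares. *Dll4* went to 0.032 and 0.32 in the same fits and *Dll1* to 0.24 and 0.53, and *Dll1* also to 0.058 with epithelial scaling and, without control mouse 1 and 2 in turn, 0.31 and -1.04. *Atoh1* went to 0.044, 0.35 by least squares, 0.077 with epithelial scaling and, without control mouse 1 and 2 in turn, -0.80 and 0.10. *Gfi1* went to 0.074 by least squares and *Arntl* to 0.27 with epithelial scaling. Beyond what each alternative does by construction, the cause was not tested.

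*Hes1* and *Klf4* kept their direction in all 17 alternatives and lost their call in 5 each. *Neurog3* was positive in all 16 that tested it and called in 5. The mouse numbers did not pair the samples (correlation of deviations -0.09). The replicate block alone left 6 lower and 1 higher, against 27.1% and 27.9% of all genes. DESeq2 called 5 lower and edgeR 6, where 24.1% and 27.3% of all genes were lower. Over all genes, 3871 were lower and 4059 higher, against 4885 and 3091 with library total scaling, 2427 and 5385 with epithelial scaling, 2458 and 2570 after the correction, 1635 and 4211 by least squares (11.7% and 30.1%) and 2077 and 2177 with the block and the correction (14.9% and 15.6%). Among the 10 genes, the fewest reads behind a value were 7, for *Neurog3* in control mouse 2.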
